A study of Mus musculus with 3 samples.

Results

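Interferon-stimulated genes are the genes that cells switch on when an interferon binds its receptor. Type I interferons act on genes mainly through the interferon-stimulated response element (ISRE), and interferon gamma, the type II interferon, mainly through the gamma-activated site (GAS). Their products sense foreign nucleic acid, cut or block viral RNA, hold virions at the cell surface, attack membranes around intracellular microbes, and attract T cells. In skin, Cxcl9 and Cxcl10, the T cell attracting members of the set, are best known from T cell driven disease. The set described here held 41 genes chosen by symbol, of which 39 were rows among the 32285 genes of the count matrices. Mx1 and Mx2 were not analysed here.

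The data were single-cell 10x Genomics 3′ RNA counts of dorsal skin from 8-week male mice of strain C57Bl/6 in telogen, the resting phase of the hair cycle, after enrichment of CD45+ immune cells on magnetic beads. There were 3 libraries, 1 per group. WT_Ctrl was wildtype skin without UVB, WT_UV was wildtype skin given UVB 3 times, and RP_UV was UVB-irradiated skin of the RP genotype, Rosa26-rtTA; Tre-Ptgs2, in which doxycycline switches on rat Ptgs2 (the gene for Cox-2) in all tissues. The comparisons asked how UVB changed the immune cells of the skin, and how forced Cox-2 changed that response. Whether the WT_UV mouse also drank doxycycline is not given in the sources used here.

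With 1 library per group no comparison has a replicate check, so no test was made, and each value stands for 1 library. Levels are unique molecular identifiers (UMIs) of a gene per 1000000 UMIs of all genes, written CPM, over the summed cells of a class, and the ranges in parentheses are 95% counting intervals, which cover counting error only. After the cell filters, 5309 WT_Ctrl, 5225 WT_UV and 6070 RP_UV cells remained, with median depths of 4246, 10557 and 3774 UMIs. Between 8 and 11 cell barcodes were shared by any pair of libraries. WT_Ctrl and RP_UV carried the same sequencing run code in their labels and WT_UV another, so for WT_UV the run and the group cannot be told apart. All 3 comparisons reuse the same libraries. Ptgs2 itself stood at 14.4 CPM in WT_Ctrl, at 117 in WT_UV and at 486 in RP_UV over all kept cells. Neutrophil-like cells made up 0.471%, 1.36% and 11.3% of these cells, and the rat transgene was counted against a mouse genome. Whether the order of Ptgs2 came from the transgene or from cell makeup was not tested.

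Cells were named from marker genes by cluster. Macrophage-like cells numbered 1887, 2346 and 2246 in WT_Ctrl, WT_UV and RP_UV, dendritic-like cells 559, 322 and 110, and keratinocyte-like cells, which the bead enrichment had not removed, 1213, 527 and 1167. At least 10% of cells carried 9 of 10 macrophage markers and 10 of 10 keratinocyte markers in every library. In the dendritic-like class 5 of 12 markers reached 10% of WT_Ctrl cells, while all 12 did so in WT_UV and 4 in RP_UV. Unnamed cells made up 9.81%, 19.0% and 7.02% of the libraries and were left out. Among them was a cluster led by Ccl17, with 4 WT_Ctrl, 251 WT_UV and 84 RP_UV cells. It scored highest for conventional dendritic markers but close to the macrophage markers. A dendritic cluster led by Xcr1, with 47, 12 and 1 cells, was also unnamed. The dendritic-like values therefore leave out many such cells, unevenly over the libraries.

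The promoters of 5 members hold matches to the elements through which interferon signals act. They are printed as examples of members that differed between libraries in macrophage-like cells, in different comparisons. Isg15 and Bst2 were higher in RP_UV than in WT_UV, and Cxcl10 was higher in WT_UV than in WT_Ctrl. Gbp2 and Igtp were lower in WT_UV than in WT_Ctrl, and so, by less than 1.5-fold, was Bst2. Whether the elements bear on these differences was not tested. The sequences are from RefSeq on GRCm38.p6, 150 bases on the gene's strand from 5′ to 3′. They end 1 base before the transcription start, except that of Cxcl10, which ends 101 bases before it. Capitals mark matches to the ISRE (TTTC, any 2 bases, TTTC) or the GAS (TTC, any 3 bases, GAA) on either strand. Overlapping matches run together.
Isg15, chr4:156200819-156200968, minus strand: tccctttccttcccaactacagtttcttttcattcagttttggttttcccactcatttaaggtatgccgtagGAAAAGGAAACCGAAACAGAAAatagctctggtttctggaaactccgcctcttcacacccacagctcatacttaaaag
Bst2, chr8:71537473-71537622, minus strand: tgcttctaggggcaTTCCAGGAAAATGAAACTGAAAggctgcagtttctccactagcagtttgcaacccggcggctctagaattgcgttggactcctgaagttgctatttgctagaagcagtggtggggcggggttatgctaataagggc
Cxcl10, chr5:92348990-92349139, minus strand: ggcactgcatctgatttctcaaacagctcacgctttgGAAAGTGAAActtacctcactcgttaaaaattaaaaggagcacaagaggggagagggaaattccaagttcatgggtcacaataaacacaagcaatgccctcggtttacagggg
Gbp2, chr3:142620513-142620662, plus strand: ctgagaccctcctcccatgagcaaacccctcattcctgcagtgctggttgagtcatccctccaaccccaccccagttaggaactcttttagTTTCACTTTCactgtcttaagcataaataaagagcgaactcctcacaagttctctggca
Igtp, chr11:58199406-58199555, plus strand: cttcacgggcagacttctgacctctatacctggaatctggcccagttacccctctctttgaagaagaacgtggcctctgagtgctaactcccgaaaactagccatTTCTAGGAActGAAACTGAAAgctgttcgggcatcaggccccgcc

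Isg15 carried 3 overlapping ISRE matches, Bst2 2 ISRE matches joined to a GAS, and Igtp 1 of each. The RefSeq table held a 300-base window, from 250 bases before to 50 after the start, for 32 of the 41 members. An ISRE match was present in 20 of them (62.5%), against 3.99% of the 27025 genes with a window. A GAS match was present in 7 (21.9%), against 9.55% of all genes, and 10 members held neither. Of the inducible GTPases 6 of 7 with a window held an ISRE and 3 of 7 a GAS, and of the nucleic acid sensors 4 of 4 held an ISRE. A match is a run of letters, not evidence of binding, and no match says only that these letters were absent from the window.

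In macrophage-like cells the summed level of the 39 members stood at 2719 CPM in WT_Ctrl (2682 to 2756), at 2150 in WT_UV (2132 to 2167) and at 2070 in RP_UV (2044 to 2096). It was highest in the unirradiated library, 1.26-fold above WT_UV and 1.31-fold above RP_UV. A gene was counted as higher or lower where its level, with 1 CPM added in each library, differed by at least 1.5-fold. Members and other listed genes were counted at any level, but the shares of all genes given below cover only genes at 5 CPM or more. In macrophage-like cells 37 of the 39 members reached that level. Of all 9144 genes measured at 5 CPM or more, 3.64% were lower by at least 1.5-fold in WT_UV than in WT_Ctrl, and so were 7 of the 39 members. In the other direction 7.84% of genes and 1 member, Cxcl10, were higher. The members' median log2 difference was -0.33, against 0.04 over all genes. The 7 were Cxcl9, Gbp2, Gbp3, Iigp1, Igtp, Irgm1 and the scarce Ifi44, and the count was 11 to 15 under 3 other settings. Fewer macrophages expressing a gene and less of its RNA per cell cannot be told apart in such sums. The sum and the median hide a split by role, which the plot of every member shows.

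**Figure D1:**
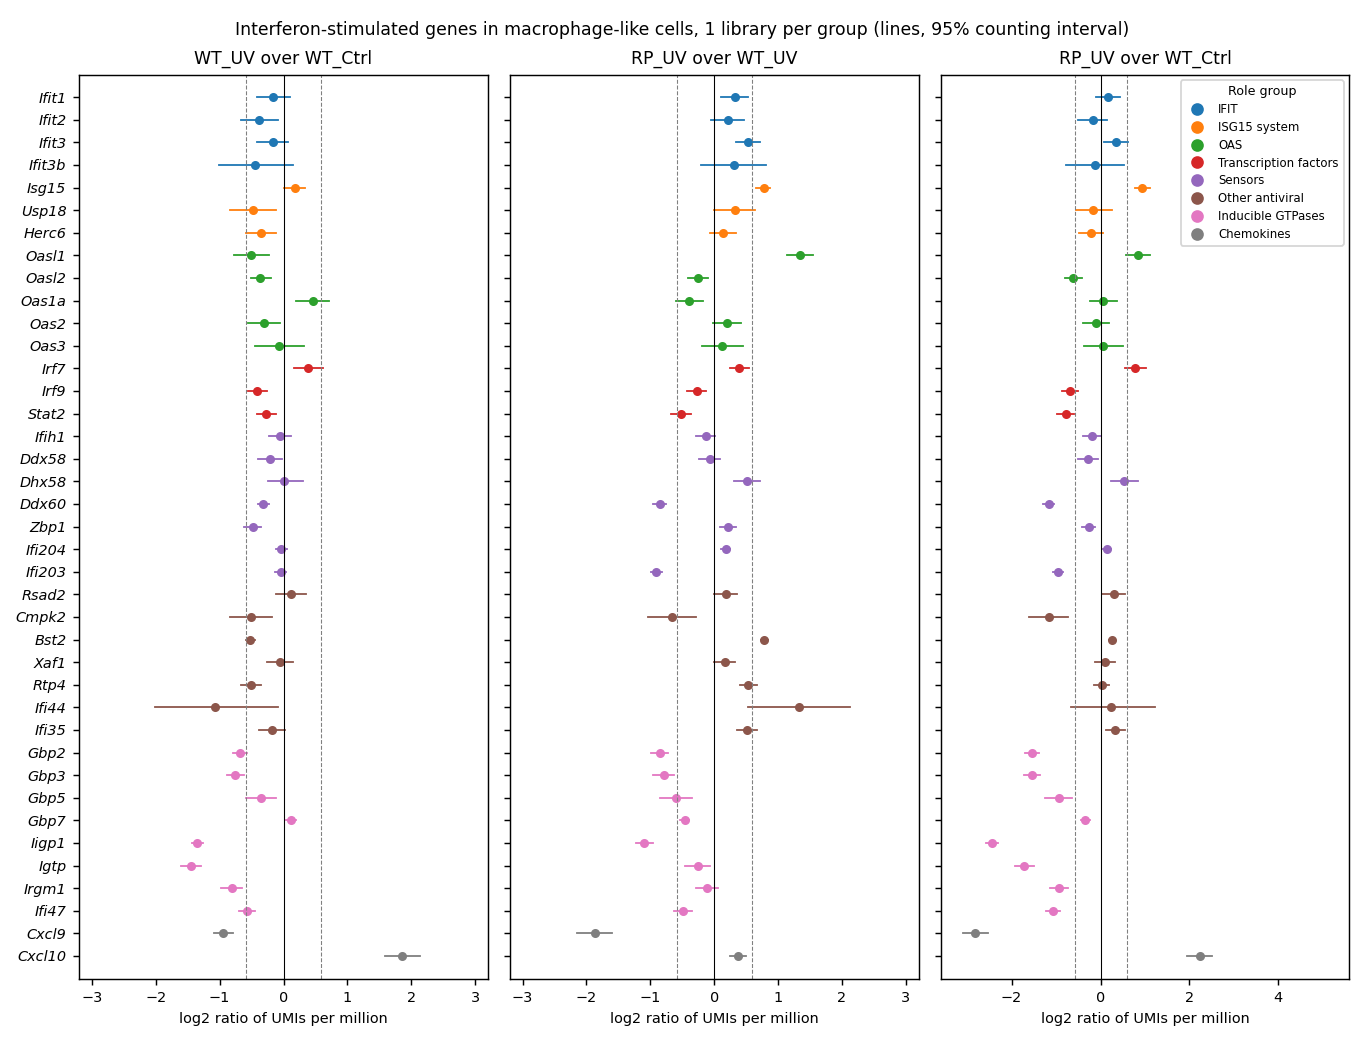
Each point is 1 member in macrophage-like cells, placed by the log2 ratio of its CPM between 2 libraries, with its 95% counting interval as a line and dashed lines at a ratio of 1.5 in either direction. The inducible GTPases (pink) and Cxcl9 lie to the left and Cxcl10 to the right in the comparisons with WT_Ctrl, while Isg15, Oasl1 and Bst2 lie to the right in RP_UV over WT_UV.

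The inducible GTPases, the guanylate-binding proteins and immunity-related GTPases that attack vacuoles holding intracellular microbes, were lower in WT_UV than in WT_Ctrl and lower again in RP_UV. Their summed level was 944 (922 to 966), 614 (604 to 623) and 406 (395 to 417). Of the 8, 5 were lower by at least 1.5-fold in WT_UV than in WT_Ctrl, 3 were lower in RP_UV than in WT_UV and 7 were lower in RP_UV than in WT_Ctrl, with none higher in any comparison. Over all genes the shares lower were 3.64%, 11.1% and 12.1%.

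Iigp1, an immunity-related GTPase that loads onto parasite vacuoles, stood at 241 CPM in WT_Ctrl (230 to 253), at 94.9 in WT_UV (91.3 to 98.6) and at 44.5 in RP_UV (40.8 to 48.4). The 3 intervals did not overlap. It was 2.54-fold lower in WT_UV than in WT_Ctrl (2.39 to 2.70) and 2.13-fold lower in RP_UV than in WT_UV (1.94 to 2.35). Gbp2, a guanylate-binding protein, followed the same order at 131, 81.8 and 45.2, as did its relative Gbp3 at 94.4, 56.0 and 32.3. RP_UV lay 2.90-fold (2.61 to 3.22) below WT_Ctrl for Gbp2 and 2.92-fold (2.58 to 3.31) below for Gbp3.

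Igtp and Irgm1, regulatory members of the same GTPase system, were lower in both irradiated libraries, which differed little from each other. Igtp stood at 79.4, 29.1 and 24.3 CPM, which was 2.73-fold lower in WT_UV than in WT_Ctrl (2.45 to 3.04). Irgm1 stood at 58.8, 33.5 and 30.9. Ifi47 was close to the limit at 100, 67.2 and 47.9. Gbp7 was the exception at 212, 230 and 167, no lower in WT_UV than in WT_Ctrl.

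The chemokine pair, both ligands of CXCR3, a chemokine receptor on T cells, had opposite orders across the libraries. Cxcl9, which is driven chiefly by interferon gamma, stood at 75.4 CPM in WT_Ctrl (69.3 to 81.8), at 39.3 in WT_UV (37.0 to 41.7) and at 10.7 in RP_UV (8.95 to 12.7). Cxcl10, which also answers type I interferon and NF-kB, stood at 15.9 (13.2 to 19.0), 57.6 (54.9 to 60.5) and 74.6 (69.8 to 79.7). RP_UV was 7.03-fold below WT_Ctrl for Cxcl9 (5.80 to 8.58) and 4.69-fold above it for Cxcl10 (3.87 to 5.72).

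Both chemokine signals sat in few cells. Cxcl9 UMIs came from 51 WT_Ctrl, 55 WT_UV and 14 RP_UV macrophage-like cells, and the 10 cells with most of them held 76.1%, 74.5% and 96.9%. Cxcl10 UMIs came from 38, 183 and 220 cells, with 70.2%, 61.7% and 34.0% in the top 10 cells. For genes so clumped the counting intervals are too narrow.

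After every cell was thinned to 2000 UMIs, the share of macrophage-like cells with Cxcl10 stood at 1.03% in WT_Ctrl, at 3.47% in WT_UV and at 6.55% in RP_UV, and that with Cxcl9 at 2.06%, 1.29% and 0.388%. Before thinning the shares were 2.01%, 7.80% and 9.80% for Cxcl10 and 2.70%, 2.34% and 0.623% for Cxcl9. In T-like cells, which are not a usual source of either, the thinned shares were 0.84%, 1.78% and 6.67% for Cxcl10, the last being 2 of 30 cells, and 0%, 0.485% and 0% for Cxcl9. The T-like median depths were 2416, 5716 and 1760 UMIs, against 3876, 10938 and 4752 in macrophage-like cells. With 2 of 30 cells (Wilson 1.85 to 21.3), the T-like value cannot show whether the RP_UV macrophage Cxcl10 share was above background over the class as a whole. In neutrophil-like cells the thinned Cxcl10 share was 6.45% of 62 WT_UV cells and 12.9% of 225 RP_UV cells (Wilson 9.13 to 17.9). How Cxcl10 was spread over the macrophage subsets is described with the subsets.

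The 4 IFIT genes, whose products grip viral RNA lacking host cap marks, stood in sum at 68.7 CPM in WT_Ctrl (62.9 to 74.8), at 58.2 in WT_UV (55.4 to 61.1) and at 75.4 in RP_UV (70.6 to 80.4). No IFIT gene passed 1.5-fold in any comparison. The 5 OAS genes, which make the second messenger for RNA decay or resemble the genes that do, summed to 132, 115 and 127, a sum that joins Oasl1, higher in RP_UV, to Oasl2, at 58.8, 45.8 and 38.4. Oas1a stood at 19.7, 27 and 20.6. Rsad2, viperin, which makes a chain terminator for viral RNA synthesis, stood at 24.9, 27 and 30.6.

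Between the irradiated libraries, 4 of 39 members were higher in RP_UV than in WT_UV, against 7.20% of all genes, and 6 were lower, against 11.1%. The members' median was 0.13, with -0.04 over all genes. The members past the limit were Oasl1, Bst2, Isg15 and the scarce Ifi44 on the higher side, and Cxcl9, Iigp1, Ifi203, Ddx60, Gbp2 and Gbp3 on the lower side.

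Isg15, a ubiquitin-like tag that is also secreted, stood at 51.4 CPM in WT_Ctrl (46.5 to 56.8), at 57.9 in WT_UV (55.2 to 60.8) and at 99 in RP_UV (93.4 to 105). RP_UV alone stood apart, 1.71-fold above WT_UV (1.58 to 1.84). Oasl1, an OAS-like protein that lacks the enzyme activity and holds back Irf7 translation, stood at 20.5, 14.5 and 36.7, 2.54-fold higher in RP_UV than in WT_UV (2.21 to 2.91). Bst2, tetherin, which ties budding virions to the membrane, stood at 302, 210 and 363, 1.72-fold higher in RP_UV than in WT_UV (1.66 to 1.79).

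For Bst2 and Oasl1 the WT_UV library was the low one, and in RP_UV over WT_Ctrl, both from the same sequencing run, Bst2 was only 1.2-fold higher. Oasl1 was 1.79-fold higher in that comparison (1.49 to 2.16). Rtp4, Ifi35, Ifit3 and Dhx58, the last an RNA-binding regulator of the RIG-I family, were between 1.43- and 1.45-fold higher in RP_UV than in WT_UV and so stayed within the limit.

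The transcription factors that carry the signal did not share a direction. Irf7, the amplifier of type I interferon production, stood at 25.6 CPM in WT_Ctrl, at 33.6 in WT_UV and at 44.1 in RP_UV, 1.72-fold higher in RP_UV than in WT_Ctrl (1.46 to 2.04). Irf9 and Stat2, the DNA-binding and activating partners of the type I complex, went the other way. Irf9 stood at 69.0, 52.0 and 42.9, and Stat2 at 64.3, 53.3 and 37.3, so that RP_UV lay 1.61-fold (1.42 to 1.82) and 1.72-fold (1.51 to 1.96) below WT_Ctrl.

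Among the 7 sensors of foreign nucleic acid, Ddx60 and Ifi203 were the ones past the limit. Ddx60, a helicase that works with RIG-I, stood at 172, 138 and 76.3 CPM, 1.81-fold lower in RP_UV than in WT_UV (1.68 to 1.95). Ifi203, a DNA-binding member of the p200 family, stood at 194, 188 and 100, 1.87-fold lower (1.76 to 2). Its relative Ifi204 stood at 199, 195 and 221. The RNA sensors Ifih1 (48.1, 46.3 and 42.1) and Ddx58, which encodes RIG-I (39.3, 34.0 and 32.4), differed by at most 1.21-fold in any comparison.

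In RP_UV over WT_Ctrl, the comparison within 1 sequencing run, 14 of 39 members were lower by at least 1.5-fold, with 12.1% of all genes, and 4 were higher, with 13.4%. The median was -0.17, with 0.02 over all genes. All 14 and all 4 were also beyond their counting intervals, a check for which no share over all genes is given. The 4 were Cxcl10, Isg15, Oasl1 and Irf7.

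Genes that move with cell handling or with RNA of other cells were read beside these values. The 12 dissociation stress genes stood in sum at 3320 CPM in WT_Ctrl, at 6414 in WT_UV and at 6550 in RP_UV macrophage-like cells, and 6 neutrophil genes at 122, 111 and 194. Keratinocyte genes summed to 168, 141 and 193, and T cell genes to 5.39, 12.7 and 4.90. Their part in the members' differences was not tested.

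The macrophage-like class held 4 subsets of at least 100 cells in each library, named here by a leading gene. They were the Ccl8-leading (707, 719 and 688 cells in WT_Ctrl, WT_UV and RP_UV), Lyve1-leading (577, 494 and 702), Cd93-leading (313, 642 and 603) and Fn1-leading cells (241, 350 and 195), the last with the monocyte gene Ly6c2. Within each subset different finer clusters held most cells of each library: in the Lyve1-leading subset cluster 1.1 held 503 WT_Ctrl cells, cluster 1.2 held 442 WT_UV cells and cluster 1.0 held 689 RP_UV cells. The clusters were built with these genes among others, so the subset values are descriptions.

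The Lyve1-leading subset, macrophages of the kind that lie along vessels, carried the highest summed member level in WT_Ctrl and RP_UV. The sums were 3233 (3158 to 3309), 2203 (2164 to 2242) and 2654 (2599 to 2710). In the Ccl8-leading subset they were 2832, 2382 and 1921, in the Cd93-leading subset 2741, 2102 and 1901, and in the Fn1-leading subset 1628, 1755 and 1493. RP_UV exceeded WT_UV in the Lyve1-leading subset alone of the 4.

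**Figure D2:**
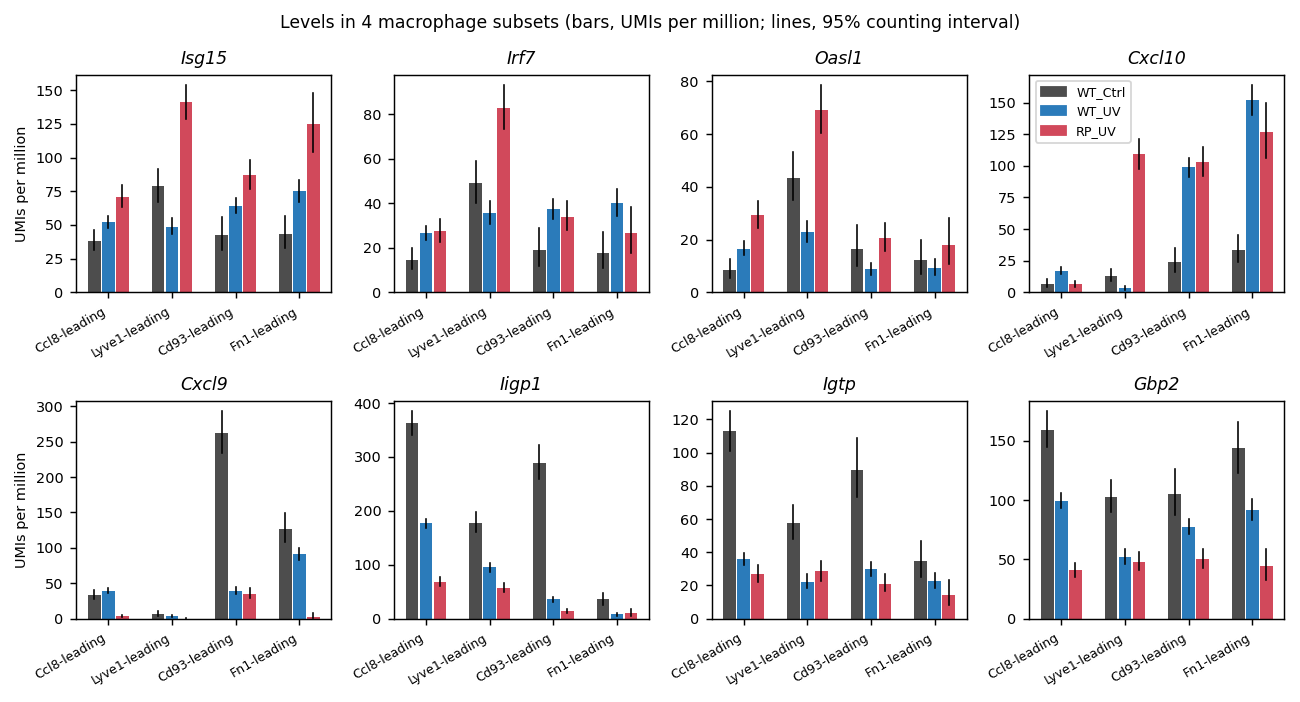
Bars give the CPM of 8 members in 4 macrophage subsets of the 3 libraries, with 95% counting intervals as lines. In the Lyve1-leading subset Isg15, Irf7, Oasl1 and Cxcl10 were lowest in WT_UV and highest in RP_UV, whereas Iigp1 and Gbp2 were highest in WT_Ctrl in every subset.

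Cxcl10 marked the difference most. In Lyve1-leading cells it stood at 12.8 CPM in WT_Ctrl (8.50 to 18.5), at 3.23 in WT_UV (1.92 to 5.11) and at 109 in RP_UV (97.8 to 121). The RP_UV signal came from 121 of 702 cells, 17.2%, with 25% of UMIs in the top 10 cells, against 10 of 577 cells in WT_Ctrl and 12 of 494 in WT_UV. Thinned to 2000 UMIs, the share was 1.04% (Wilson 0.446 to 2.42), 0.828% (0.323 to 2.11) and 12.2% (9.91 to 15). In the Ccl8-leading subset of the same RP_UV library it was 0.615% (0.24 to 1.57), so Cxcl10 was not spread evenly over that library.

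In the Cd93-leading and Fn1-leading subsets Cxcl10 was already high after UVB alone. It stood at 24.2, 98.7 and 103 CPM in Cd93-leading cells and at 33.1, 152 and 127 in Fn1-leading cells. The 10 cells with most Cxcl10 held 62.5% of its UMIs in WT_UV and 62.4% in RP_UV Cd93-leading cells, and 90.5% and 96.3% in Fn1-leading cells. Cxcl9 in Lyve1-leading cells stood at 5.94 and 3.23 in WT_Ctrl and WT_UV, and no UMI was seen in the 702 RP_UV cells.

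Isg15 in Lyve1-leading cells stood at 78.6 CPM in WT_Ctrl (67.3 to 91.2), at 48.7 in WT_UV (43.1 to 54.8) and at 141 in RP_UV (129 to 154). Irf7 there stood at 48.9, 35.7 and 82.8, and Oasl1 at 43.4, 22.8 and 69.2. The WT_UV library was lowest for each of these in the Lyve1-leading subset. In the other 3 subsets Isg15 and Irf7 were higher in WT_UV than in WT_Ctrl, for instance Isg15 at 42.3, 64.2 and 87.0 in Cd93-leading cells.

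Over all 39 members, 26 were lower by at least 1.5-fold and 0 higher in WT_UV than in WT_Ctrl Lyve1-leading cells, with a median of -0.71 (0.02 over the 9062 genes of that subset, of which 4.11% were lower and 6.9% higher). In the Ccl8-leading subset the counts were 5 lower and 8 higher, with 4% and 8.85% of genes and a median of -0.02. In the Cd93-leading subset they were 9 and 6, with 10.1% and 17% of genes and a median of -0.08. In the Fn1-leading subset 6 were lower and 13 higher, with 10.3% and 18.8% of genes and a median of 0.09.

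Iigp1 was highest in WT_Ctrl in all 4 subsets. Iigp1 stood at 363, 177 and 68.1 CPM in Ccl8-leading, 178, 95.2 and 56.5 in Lyve1-leading, 289, 35.6 and 13.9 in Cd93-leading and 35.5, 7.57 and 9.46 in Fn1-leading cells. The gap between WT_Ctrl and WT_UV was widest in the Cd93-leading cells, 8.12-fold (6.88 to 9.60). In the Fn1-leading cells the WT_UV and RP_UV intervals overlapped, at 5.21 to 10.6 and 4.54 to 17.4.

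Dendritic-like cells, the antigen-presenting cells that carry skin antigen to lymph nodes, held fewer member UMIs than macrophage-like cells. The sum stood at 1011 CPM in WT_Ctrl (978 to 1045), at 685 in WT_UV (663 to 707) and at 802 in RP_UV (730 to 880). Of 39 members 15 were lower in WT_UV than in WT_Ctrl, with 5.31% of 8808 genes, and 2 were higher, with 8.79%. Of these, 10 and 1 were also beyond counting error, a check for which no share over all genes is given here or below. The median was -0.41, with 0.03 over all genes. Dissociation stress genes were highest in WT_Ctrl in this class, unlike in macrophage-like cells, at 11182, 8011 and 7866 CPM. Their part in the members' differences was not tested.

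Gbp2 and both chemokines were among the 15. Gbp2 stood at 79.8 CPM (70.7 to 89.7), 24.2 (20.2 to 28.7) and 19.7 (9.81 to 35.2) in WT_Ctrl, WT_UV and RP_UV. Cxcl9 stood at 198, 84.0 and 25, but 27, 20 and 2 cells carried it, and a single WT_UV cell held 67.5% of its UMIs. Cxcl10 stood at 52.7, 20.1 and 55.4, with 49.5% of the WT_UV UMIs in 1 cell. On the higher side Dhx58 stood at 2.88, 6.65 and 10.7, Ifi35 at 43.2, 61.5 and 42.9 and Gbp7 at 28.2, 35.4 and 37.5.

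In RP_UV over WT_UV dendritic-like cells 19 members were higher, with 16.6% of genes, and 4 were lower, with 15.7%, and 12 and 1 of them were beyond counting error. Members were counted at any level here too. Of the 39, 28 reached a mean of 5 CPM in this class, the limit set for all genes. Isg15 stood at 16.8 CPM in WT_UV (13.5 to 20.6) against 53.6 in RP_UV (36.2 to 76.5), from 91 and 30 UMIs. In RP_UV over WT_Ctrl 16 members were higher, with 20.6% of genes, and 10 were lower, with 15.9%, and 7 and 5 were beyond counting error. Oas3, an OAS enzyme, gave 5, 10 and 7 UMIs and was the highest of them, 8.68-fold (2.37 to 34.7). Isg15 was 2.74-fold higher there (1.72 to 4.26), Irf7 3.10-fold higher (1.23 to 7.27) and Irgm1 3.22-fold lower (1.21 to 12.1).

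The RP_UV dendritic-like values rest on 110 cells and must be read with the RNA of other cells in them. Neutrophil genes stood in sum at 6.05 CPM in WT_Ctrl, at 57.4 in WT_UV and at 527 in RP_UV dendritic-like cells, all 6 higher in RP_UV than in WT_UV, and keratinocyte genes at 269, 135 and 720. Their part in the members' differences was not tested. Iigp1 showed 15, 2 and 10 UMIs, and 9 of the 10 RP_UV UMIs were in 1 cell. Under classes called per cell from marker UMIs, only 2 members were higher in RP_UV than in WT_UV, so the RP_UV difference in this class depended on how the cells were named. Without the cell holding most UMIs of each member in each library, 13 members were higher and 10 lower in RP_UV than in WT_UV, with a median of 0.00.

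In keratinocyte-like cells most of the set was lower in the irradiated libraries than in WT_Ctrl. The sum stood at 421 CPM in WT_Ctrl (407 to 435), at 172 in WT_UV (162 to 182) and at 121 in RP_UV (113 to 128). WT_Ctrl was 2.44-fold above WT_UV (2.28 to 2.61) and 3.49-fold above RP_UV (3.25 to 3.75). In WT_UV over WT_Ctrl 25 of 39 members were lower, with 9.43% of 9374 genes, and 0 were higher, with 5.79%. The median was -0.92, with -0.13 over all genes. Of the 39 members 16 reached 5 CPM in this class, and 13 of those were lower.

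**Figure D3:**
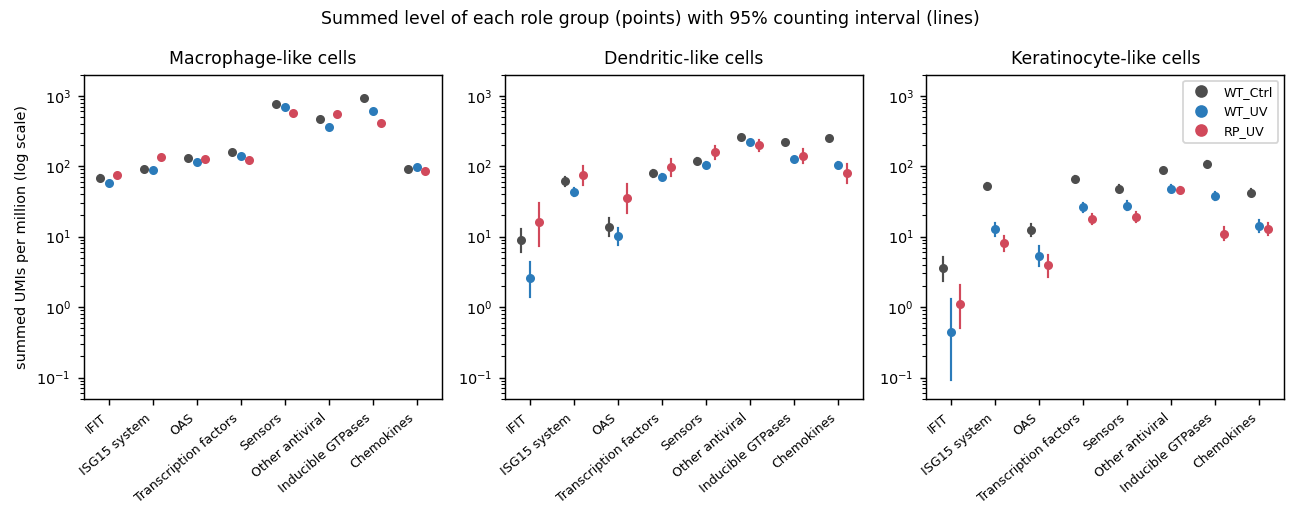
Points give the summed CPM of each role group in 3 cell classes of the 3 libraries on a log scale, with 95% counting intervals as lines. In keratinocyte-like cells every role group was highest in WT_Ctrl, and the inducible GTPases differed most between WT_Ctrl and RP_UV, 109 against 11.0.

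Iigp1 in keratinocyte-like cells stood at 32.7 CPM in WT_Ctrl (28.8 to 37.0), at 2.09 in WT_UV (1.15 to 3.51) and at 0.98 in RP_UV (0.423 to 1.93), from 258, 14 and 8 UMIs. Iigp1 was 15.6-fold lower in WT_UV than in WT_Ctrl (9.14 to 29.0). A single WT_UV cell held 64.3% of its UMIs there, and the top 10 WT_Ctrl cells held 52.7%, so this interval is too narrow. Isg15, which in macrophage-like cells was highest in RP_UV, stood at 32.8, 7.18 and 5.51, so both irradiated libraries were low. Usp18, the enzyme that removes the Isg15 tag and damps interferon receptor signalling, stood at 14.2, 2.69 and 1.71. Xaf1, a promoter of apoptosis, stood at 20.4, 3.89 and 2.20.

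In RP_UV over WT_UV keratinocyte-like cells 14 members were lower, with 10.7% of genes, and 6 were higher, with 14.7%. The lower ones were led by Gbp2, at 26.0, 14.1 and 1.59 CPM, 8.84-fold lower in RP_UV than in WT_UV (4.93 to 17.2). A single WT_UV cell held 61.7% of the Gbp2 UMIs there and a single cell 34% of the Igtp UMIs. Without the cell holding most of its UMIs in each library Gbp2 was 4.41-fold lower. Igtp stood at 14.8, 7.03 and 1.84, and Ddx58 at 8.88, 8.38 and 2.33. Ddx58 thus differed in RP_UV and not in WT_UV. In RP_UV over WT_Ctrl 28 members were lower, with 18.8% of genes, and 2 were higher, with 15.4%. The 2 were Ifit3 and Ifi204, at 0.735 and 3.31 CPM in RP_UV.

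Bst2 and Ifi35 were among the least changed in keratinocyte-like cells. Bst2 stood at 31.8, 23.5 and 20.3 CPM and Ifi35, an interferon-induced leucine zipper protein, at 26.4, 19.8 and 22.4. Cxcl10 stood at 28.5, 10.6 and 12, but a single WT_Ctrl cell held 49.8% of its UMIs. Without the cell holding most of them in each library it stood at 14.3, 9.16 and 10.1.

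WT_Ctrl was highest in each of 3 keratinocyte subsets. The summed level was 282, 146 and 156 CPM in Krt10-leading cells, the differentiating layer, 638, 148 and 103 in Smoc2-leading cells and 488, 161 and 97.6 in Krt79-leading cells. Clusters outside these subsets differed in size between libraries. A cluster led by Elovl6 held 7, 4 and 97 cells in WT_Ctrl, WT_UV and RP_UV, and a cluster led by Krt15 and Ptn held 23, 4 and 55. Dissociation stress genes were also highest in WT_Ctrl, at 7929, 4819 and 2782 CPM over the class, and neutrophil genes were highest in RP_UV, at 4.44, 29.3 and 205. Their part in the members' differences was not tested.

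Across the 3 classes the members that were lower by at least 1.5-fold in each of them in WT_UV over WT_Ctrl were Cxcl9, Gbp2, Igtp, Iigp1 and Irgm1, 5 of 39, with 0.344% of the 7272 genes measured in all 3. In RP_UV over WT_Ctrl they were Cxcl9, Gbp2, Ifi47, Igtp and Irgm1, with 1.87% of genes. No member was higher in all 3 classes in any comparison. Over all genes the shares were 0.921% in WT_UV over WT_Ctrl, 1.6% in RP_UV over WT_UV and 2.61% in RP_UV over WT_Ctrl. These are small enough that 0 of 39 members lies near them. In macrophage- and keratinocyte-like cells together, 13 members were lower in RP_UV than in WT_Ctrl, Irf9, Stat2, Ddx60 and Cmpk2 among them, with 4.49% of 7750 genes.

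Counting members per cell shows how many cells carried the response. Each cell was thinned to 2000 UMIs, shallower cells were left out, and a cell with UMIs of at least 5 different members was said to carry many. The share of macrophage-like cells that carried many stood at 34.0% in WT_Ctrl (561 of 1649, Wilson 31.8 to 36.3), at 22.6% in WT_UV (509 of 2248, 21.0 to 24.4) and at 23.8% in RP_UV (490 of 2060, 22 to 25.7). Thinning left out 238, 98 and 186 cells. Without it the shares were 63.1%, 81.9% and 60.1%, highest in the deepest library.

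**Figure D4:**
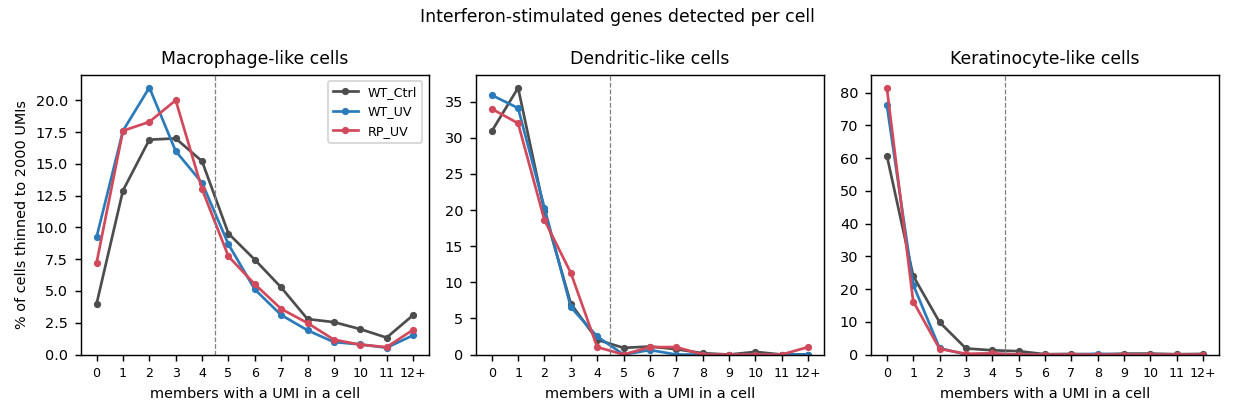
Lines give the percent of cells, thinned to 2000 UMIs, that had UMIs of 0 to 12 or more members in the 3 libraries, with a dashed line below 5 members. WT_Ctrl macrophage-like cells lie to the right of the irradiated ones, and most keratinocyte-like cells had no member, with shares at 60.8% in WT_Ctrl, at 76.2% in WT_UV and at 81.5% in RP_UV.

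The mean number of member UMIs per thinned macrophage-like cell was 5.54 in WT_Ctrl, at 4.14 in WT_UV and at 4.36 in RP_UV, with medians of 4, 3 and 3. WT_UV lay at 0.747 of WT_Ctrl (0.725 to 0.769) and RP_UV at 0.787 (0.765 to 0.811). RP_UV over WT_UV was 1.05 (1.02 to 1.09), and without Bst2 it was 0.964. With any other single member left out the ratio lay between 1.03 and 1.11.

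Some members were found in different shares of those cells. Among macrophage-like cells with many members, the share with an Iigp1 UMI stood at 43.0% in WT_Ctrl, at 23.8% in WT_UV and at 19.2% in RP_UV. Isg15 ran the other way at 18%, 22% and 34.7%. Oasl1 was found in 9.27%, 5.89% and 16.9% of them. Others were nearer to each other, such as Ifi204 at 51.7%, 54.8% and 57.3%, and these 4 were chosen after their values were seen.

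By subset, the Lyve1-leading cells had the largest shares with many members, though in WT_UV their interval overlapped that of the Ccl8-leading cells. The shares were 45.8% (41.4 to 50.3), 27.7% (23.9 to 31.9) and 38.0% (34.4 to 41.8). Ccl8-leading cells followed with 32.9%, 26.7% and 18.5%, and Cd93-leading cells with 29.3%, 20% and 18%. In Lyve1-leading cells RP_UV exceeded WT_UV, while in the other subsets it did not.

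Few dendritic- and keratinocyte-like cells carried many members. In dendritic-like cells the thinned shares were 3.33%, 0.625% and 3.09%, the last being 3 of 97 cells. In keratinocyte-like cells they were 2.14% and 0.245%, and 0 of 868 RP_UV cells, which allows up to 0.441%. Unthinned, they were 20.6%, 55.3% and 16.4% in dendritic-like and 9.23%, 4.93% and 1.29% in keratinocyte-like cells.

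Set beside the other cell classes, macrophage-like cells were among the highest in every library. They were level within counting error with endothelial-like cells in WT_Ctrl and RP_UV, and with NK-like cells in RP_UV, at 1941 CPM (1449 to 2545) from 15 cells. Plasmacytoid dendritic-like cells, 2 in RP_UV, were left out of these sums. Thinned, 20 of them in WT_UV held 4.75 member UMIs on average, against 4.14 in macrophage-like cells. In endothelial-like cells, which line vessels, the sum stood at 2894 CPM in WT_Ctrl (2681 to 3118), at 1250 in WT_UV (1089 to 1429) and at 2075 in RP_UV (1990 to 2163), from 82, 22 and 338 cells. In pericyte or smooth muscle-like cells it was 2001, 933 and 1184. Both vessel-associated classes were highest in WT_Ctrl.

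In neutrophil-like cells the sum was lowest in WT_Ctrl, at 1379, 1800 and 1755 CPM from 25, 71 and 687 cells. T-like cells stood at 948, 791 and 1492, the last from 71 cells. Langerhans-like cells, the dendritic cells of the epidermis, stood at 473, 520 and 572, and these 3 intervals overlapped.

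**Figure D5:**
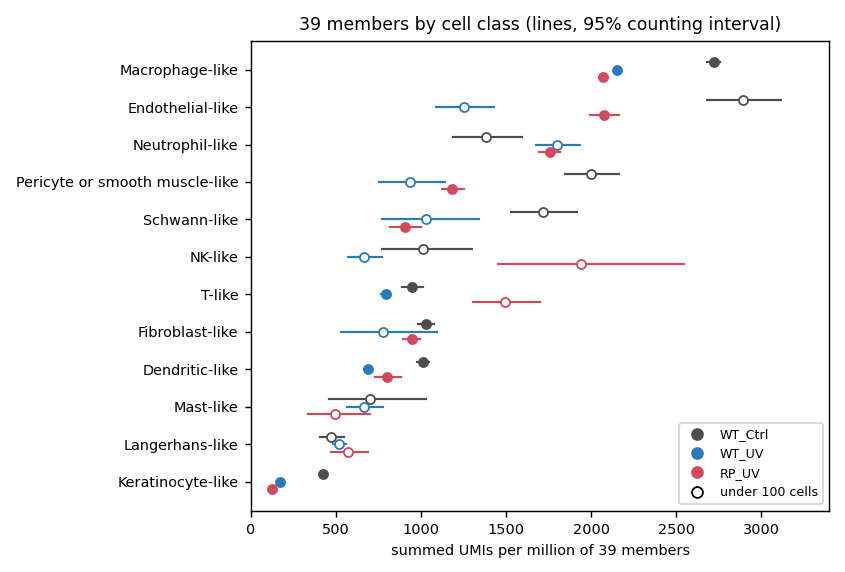
Points give the summed CPM of the 39 members in 12 cell classes of the 3 libraries, with 95% counting intervals as lines and open points for fewer than 100 cells. Macrophage-like cells stand at 2070 or above in every library, and keratinocyte-like cells at 421 or below.

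Type I interferon genes were seldom seen in macrophage-like cells. They were not examined in plasmacytoid dendritic-like cells, of which there were 20, 21 and 2 in WT_Ctrl, WT_UV and RP_UV. Over macrophage-like cells Ifnb1, the type I interferon of early antiviral responses, gave 2, 8 and 1 UMIs in WT_Ctrl, WT_UV and RP_UV, and Ifna1, Ifna2 and Ifna4 gave none. Ifng, the type II interferon made by T and NK cells, stood at 274 CPM in WT_Ctrl T-like cells (242 to 309), at 135 in WT_UV (124 to 146) and at 166 in RP_UV (107 to 245), from 262, 599 and 25 UMIs. WT_Ctrl was 2.03-fold above WT_UV (1.75 to 2.35). The makeup of the class moved with this: cluster 6.0, led by Cd8a among others and by Ifng itself, held 53.7% of WT_Ctrl, 25.2% of WT_UV and 23.9% of RP_UV T-like cells. Within it Ifng stood at 533 CPM (464 to 610), 401 (360 to 446) and 399 (206 to 697). RP_UV had 71 T-like cells, and the 6 neutrophil genes summed to 2911 CPM in them, against 12.5 in WT_Ctrl and 10.1 in WT_UV. The T-like class also held a cluster led by Il13, a gene of type 2 lymphoid cells. T-like cells made up 6.35%, 12.2% and 1.17% of the kept cells. In NK-like cells the thinned share with Ifng was 30.8% of 13 WT_Ctrl cells (Wilson 12.7 to 57.6) and 34.4% of 32 WT_UV cells (20.4 to 51.7). With so few cells these intervals cannot show whether the share fell there.

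Receptor genes were steadier. In macrophage-like cells Ifnar1, a chain of the type I receptor, stood at 68.5, 87.8 and 76.4 CPM, and Ifngr1, a chain of the interferon gamma receptor, at 256, 285 and 230. None of the 6 receptor genes passed 1.5-fold in any comparison. Irf1, a factor induced by interferon gamma, stood at 116, 104 and 74.4.

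Of 5 feedback inhibitors, 2 were higher and 0 lower in WT_UV than in WT_Ctrl, and 2 were higher and 1, Pias1, lower in RP_UV than in WT_Ctrl, where 7.84% and 3.64%, and 13.4% and 12.1%, of all genes were higher and lower. Socs3, which blocks cytokine receptor kinases, stood at 40.9 CPM in WT_Ctrl (36.5 to 45.7), at 99.7 in WT_UV (96.1 to 103) and at 122 in RP_UV (115 to 128). Socs1, the inhibitor of interferon receptor kinases, stood at 6.84, 13.5 and 9.31. Ptpn2, a phosphatase that damps cytokine signalling, stood at 25.6, 36.8 and 41.3.

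Among 71 other interferon pathway genes in macrophage-like cells, 10 were lower and 5 higher in WT_UV than in WT_Ctrl, 13 lower and 1 higher in RP_UV than in WT_UV, and 22 lower and 2 higher in RP_UV than in WT_Ctrl. Over all genes 3.64% were lower and 7.84% higher in the first comparison, 11.1% and 7.2% in the second, and 12.1% and 13.4% in the last. Of the 30 other interferon targets among them, 14 were lower in RP_UV than in WT_Ctrl and 0 higher. Ciita, the master switch of MHC class II genes and an interferon gamma target, stood at 141 CPM (132 to 149), 80.7 (77.4 to 84.1) and 11.1 (9.25 to 13.1). It was 7.30-fold lower in RP_UV than in WT_UV (6.13 to 8.77). Gbp4 stood at 36.4, 19.4 and 3.82, Gbp6 at 18, 8.87 and 5.4, and Tgtp2, an immunity-related GTPase, at 9.34, 5.38 and 1.25.

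Ifitm3, which blocks virus entry from endosomes, took the course of Bst2, at 1354, 747 and 1362 CPM. The WT_UV library was low and the other 2 were alike. Ly6e stood at 2695, 1472 and 1572, and Ifi27l2a at 769, 668 and 981. Myd88, an adaptor of Toll-like receptors, stood at 34.6, 56.8 and 49.1, and Mavs, the adaptor of the RNA sensors, at 15.7, 14.8 and 19.4. Ifi211, a p200 family member, stood at 35.2, 63.5 and 37.1, so that the WT_UV library was the high one. Ifit3 and Ifit3b, the Oas genes, Gbp4 and Tgtp2 have closely similar neighbours among which the counting could split reads, so their levels are uncertain.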

How the data were processed

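The authors deposited 1 filtered matrix of UMI counts per library, which are whole numbers for each gene in each cell and came from Cell Ranger (6.1.1 in the file headers) with mm10. The members and lists were chosen with earlier results of these data known. Cells with more than 200 genes, fewer than 4000 (6000 in WT_UV) and under 10% mitochondrial counts were kept, as in the study's methods. Libraries were integrated with Seurat 5.3.0 and sctransform 0.4.2 (3000 features, 30 dimensions) and clustered at resolutions of 0.8 and 0.5. Of 131 clusters 106 were named from 21 marker panels, by limits set after the clusters were seen, and different clusters held most of a class in each library. Scrublet marked 1.39%, 0.0191% and 0.0165% of cells, so it had not worked in WT_UV and RP_UV, and doublets were not removed.

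Raw UMIs were summed per class and library. Intervals are exact Poisson for levels, conditional binomial for ratios and Wilson for shares, at 95%, and cover counting error only. Scripts were tested on simulated data. By rule, the text names in each comparison the 8 highest and 6 lowest members at 5 CPM or more in macrophage-like cells, the 3 highest and 3 lowest in the other main classes and the pathway list, all transcription factors and chemokines, and Ifng, Ifnb1, Irf1, Socs1, Ifngr1 and Ifnar1. Other genes were chosen after their values were seen. A gene that the rule also names is not reported here. The upper limit of genes per cell, thinning, class calls, TMM scaling (edgeR 4.0.16), pseudocount, fold limit and doublet removal were varied.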

Additional observations from a re-analysis of the deposited data

Results flagged for a closer look

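Several members lay in opposite directions in different cell classes of the same libraries, past 1.5-fold in each. How many of all genes did so is not given. With 1 library per group none of these differences was tested. The RP_UV dendritic-like values rest on 110 cells and depended on how the cells were named. Values are log2 differences in CPM with 1 added.

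In WT_UV over WT_Ctrl, Cxcl10 was 1.79 in macrophage-like cells, -1.35 in dendritic-like and -1.35 in keratinocyte-like cells. A single WT_Ctrl keratinocyte-like cell held 49.8% of the Cxcl10 UMIs there, and without the cell holding most of them in each library that value was -0.59. Dhx58 was 0.98 in dendritic-like and -1.13 in keratinocyte-like cells, the latter from 12 UMIs against 1.

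In RP_UV over WT_UV, Oasl2 was 1.57 in dendritic-like and -0.80 in keratinocyte-like cells, from 6 and 7 RP_UV UMIs. Ddx58 was 1.19 and -1.50 in the same classes, from 9 and 19 RP_UV UMIs. Iigp1 was 3.78 in dendritic-like and -1.08 in macrophage-like cells, and 9 of its 10 UMIs in RP_UV dendritic-like cells were in 1 cell.

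In RP_UV over WT_Ctrl, Isg15 was 0.93 in macrophage-like, 1.41 in dendritic-like and -2.38 in keratinocyte-like cells. Irf7 was 0.76, 1.47 and -1.17 in the same order, from 531, 9 and 13 RP_UV UMIs. Xaf1 was 0.97 in dendritic-like and -2.74 in keratinocyte-like cells, from 16 and 18 RP_UV UMIs. A single cell held 25% of the 16. Iigp1 was 1.83 in dendritic-like, -2.41 in macrophage-like and -4.09 in keratinocyte-like cells. Cxcl10 was 2.16 in macrophage-like and -1.18 in keratinocyte-like cells, the latter -0.47 without those cells and then within the limit. Without the cell holding most of its UMIs in each library, Iigp1 in dendritic-like cells was -0.56.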

How the results depend on the processing

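No paired analysis was possible because each group is 1 library, and leaving out a library would empty a group. For 85 named values, each a member in a class and comparison, 827 alternative values were computed, of which 820 kept their direction and 7 reversed. Values follow as WT_UV over WT_Ctrl, RP_UV over WT_UV or RP_UV over WT_Ctrl, and the causes of the changes were not tested except where the setting itself uses fewer cells or genes.

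With a fold limit of 2, macrophage-like members lower numbered 2 in WT_UV over WT_Ctrl, those higher and lower 1 and 2 in RP_UV over WT_UV, and 1 and 8 in RP_UV over WT_Ctrl. With sums over thinned cells, 15 macrophage-like members were lower in WT_UV over WT_Ctrl and 8 higher in RP_UV over WT_UV. In dendritic-like cells 5 were then higher in WT_UV over WT_Ctrl, 8 lower in RP_UV over WT_UV, and Cxcl10 reversed to 0.14 in WT_UV over WT_Ctrl. As a mean over cells, 12 macrophage-like members were lower in WT_UV over WT_Ctrl and 9 higher in RP_UV over WT_UV.

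With classes called per cell from marker UMIs, 11 macrophage-like members were lower in WT_UV over WT_Ctrl. In dendritic-like cells 2 were higher and 12 lower in RP_UV over WT_UV, 3 were higher in RP_UV over WT_Ctrl, Iigp1 reversed to -1.36 and -2.99 in these comparisons, and the ratios of mean member UMIs per cell were 0.836 and 0.655. In keratinocyte-like cells 1, 2 and 0 were higher in the 3 comparisons. With clusters made without integration, which left 14 dendritic-like RP_UV cells after thinning, 6 dendritic-like members were higher in WT_UV over WT_Ctrl, 8 lower in RP_UV over WT_UV, Iigp1 reversed to -0.71 in RP_UV over WT_Ctrl, and the ratios of mean member UMIs were 1.06, 2.16 and 2.30, the first and last reversed. There 2 keratinocyte-like members were higher in WT_UV over WT_Ctrl. With the top 5% of Scrublet scores removed, 9 dendritic-like members were lower in RP_UV over WT_UV, Iigp1 reversed to -0.46 there and -2.43 in RP_UV over WT_Ctrl, and 3 keratinocyte-like members were higher in WT_UV over WT_Ctrl and 3 in RP_UV over WT_UV.

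With only members at 5 CPM or more, 1 dendritic-like member was higher in WT_UV over WT_Ctrl and 2 lower in RP_UV over WT_UV. In keratinocyte-like cells 13 were lower in WT_UV over WT_Ctrl, 0 higher in RP_UV over WT_UV, and 0 higher and 15 lower in RP_UV over WT_Ctrl. With a pseudocount of 5, dendritic-like members higher in WT_UV over WT_Ctrl numbered 0, those lower in RP_UV over WT_UV 1, and those higher and lower in RP_UV over WT_Ctrl 10 and 6. In keratinocyte-like cells 0 were then higher and 4 lower in RP_UV over WT_UV, and 0 higher in RP_UV over WT_Ctrl with a median of -0.73.

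When all libraries had the upper limit of 4000 genes per cell, 6 keratinocyte-like members were lower in RP_UV over WT_UV. The ratios of mean member UMIs were then 0.724 and 1.09 in macrophage-like and 0.256 and 0.929 in keratinocyte-like cells for WT_UV over WT_Ctrl and RP_UV over WT_UV. The ratio of shares of macrophage-like cells with at least 3 members was 0.787 in WT_UV over WT_Ctrl and 0.858 in RP_UV over WT_Ctrl, and with at least 8 members it was 0.488, 1.21 and 0.59 in the 3 comparisons. Thinning to 1000 UMIs gave share ratios of 0.516 and 0.518 over WT_Ctrl, and keratinocyte-like UMI ratios of 0.395 and 0.286. Thinning to 4000 gave a macrophage-like share ratio of 0.771 in WT_UV over WT_Ctrl, UMI ratios of 0.978 in RP_UV over WT_UV, reversed, and 0.746 in RP_UV over WT_Ctrl, and a keratinocyte-like ratio of 0.40 in WT_UV over WT_Ctrl. Without Bst2 the macrophage-like UMI ratio reversed to 0.964 in RP_UV over WT_UV and was 0.737 in RP_UV over WT_Ctrl.

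Without the cell holding most UMIs of each member in each library, an alternative chosen after seeing the data, dendritic-like members higher numbered 1 in WT_UV over WT_Ctrl and 8 in RP_UV over WT_Ctrl, those lower in RP_UV over WT_UV numbered 10, and Iigp1 reversed to -0.56 in RP_UV over WT_Ctrl.

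TMM scaling moved no count by over 1.5 times. Its factors were 0.9619, 0.9739 and 1.067 for WT_Ctrl, WT_UV and RP_UV in dendritic-like cells, where the members' median in RP_UV over WT_UV became 0.39, and 1.038, 0.9604 and 1.003 in keratinocyte-like cells, where that in WT_UV over WT_Ctrl became -0.88. Weighting the 4 macrophage subsets equally, leaving out the Fn1-leading subset, and asking that the counting interval also exclude 1 were chosen after seeing the data, and under them no macrophage-like count moved by over 1.5 times.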
